A study of Bos taurus with 15 samples.

Results

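The mRNAs of 10 amino acid transporters were followed in pools of bovine blastocysts that had been cultured with or without vesicles of oviductal fluid. The 10 genes were given by symbol, and all 10 were matched, through the gene identifiers of the RefSeq annotation of ARS-UCD2.0, to the 34773 genes of the unfiltered count table. Of these genes, 9 were also among the 10832 genes of the filtered table, and only the taurine transporter gene SLC6A6 was taken from the unfiltered table. The embryos were produced by fertilisation in vitro and sampled as blastocysts of day 7. Control embryos (Co) received no vesicles, a further group received freshly isolated extracellular vesicles of the postovulatory oviduct (FeEV), and another group received the same kind of vesicles after freezing and thawing (FoEV). According to the paper, the vesicles of both treatments were split from material of the same oviducts. Each treatment had 5 libraries, each prepared from 1 ng of total RNA of a pool of 8 to 14 embryos. The pools with the best RNA had been selected for sequencing, and the vesicles came from oviducts collected at a slaughterhouse. A library averages over whole embryos, so fewer cells of a type and less mRNA per cell cannot be told apart, and a p-value measures the spread between pools.

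Amino acid transporters carry amino acids across cell membranes and belong to several solute carrier (SLC) families. In the heteromeric transporters, the glycoprotein SLC3A2 (4F2hc, CD98) is the heavy chain that brings a light chain of the SLC7 family to the cell surface, and the light chain carries the substrate. The sodium-coupled carriers of the SLC38 and SLC1 families accumulate amino acids such as glutamine, alanine or glutamate against their gradient, and the exchangers use part of this pool to bring in leucine and other essential amino acids. In the mouse blastocyst, uptake of leucine and arginine is known to feed the mTORC1 kinase of the trophectoderm, which takes part in the protrusive activity before attachment. When amino acids are short, the kinase GCN2 (EIF2AK4) and the transcription factor ATF4 are known to raise the transcription of several carriers, among them SLC38A2, SLC7A5 and SLC3A2.

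The total count of a library lay between 2136713 and 4058887, and the median was 2779168 for Co libraries, 3065710 for FeEV and 3781117 for FoEV libraries. Every FoEV library (3392613 to 4058887) was deeper than every Co library (2571558 to 2977004), so depth went with treatment in FoEV vs. Co. With 3 counts as the floor, the smallest level that could be read lay between 0.739 and 1.404 CPM (counts per 1e06 counts of the library). The trophectoderm markers were present in every library, for example KRT8 with at least 3613 CPM and GATA3 with at least 193.8 CPM. So were POU5F1 of the inner cell mass list (at least 157 CPM) and GATA6 of the hypoblast list (at least 347 CPM), which alone do not show these lineages. Of the hypoblast list, SOX17 was near the floor, with 2 to 14 counts, and GATA4 had 5 to 27 counts. Most markers of other cells had few counts. The oviduct gene OVGP1 had 0 to 6 counts, the ciliated cell gene FOXJ1 0 to 4, the cumulus gene PTX3 0 to 1 and the leukocyte gene PTPRC 0 to 2, and HBB, the beta chain of haemoglobin, had 0 counts in all 15 libraries. Of these lists, CYP19A1 (cumulus cells, 36 to 140 counts) and PAX8 (oviduct epithelium, 12 to 46 counts) were in the filtered table, and HBA (0 to 19 counts), ESR1 (1 to 17), HAS2 (0 to 13) and CD14 (1 to 13) reached more than 10 counts in a library. The summed level of the lists ran from 6.68 to 18.7 CPM for the oviduct epithelium, from 16.5 to 39.7 CPM for cumulus cells and from 0.743 to 7.42 CPM for blood cells.

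No transporter gene was called in any of the 3 comparisons at an adjusted p under 0.05 (0 of 9 genes each, quasi-likelihood F test of edgeR with Benjamini-Hochberg adjustment over 10832 genes), where 0.00923%, 0% and 0% of all genes were called for FoEV vs. Co, FeEV vs. Co and FoEV vs. FeEV. The nearest was SLC38A2, the sodium-coupled neutral amino acid carrier SNAT2, whose level in FoEV was 0.683 times that in Co. The paper lists SLC38A2 among its downregulated genes for FoEV vs. Co. In the fit used here only 1 of all 10832 genes was called in that comparison, so 0 of 9 says little about the transporters. At an unadjusted p under 0.05, 3 of 9 genes passed in FoEV vs. Co (SLC38A2 lower, SLC43A2 and SLC7A5 higher), beside 15.1% of all genes. In FeEV vs. Co, 4 of 9 passed (SLC38A2 and SLC7A7 lower, SLC7A5 and SLC43A2 higher), beside 4.15% of all genes. Between EV treatments 0 of 9 passed, beside 8.52%. The median log2 fold change of the 9 genes was 0.03 for FoEV vs. Co and -0.09 for FeEV vs. Co, and that of all genes 0.01 and 0.00. For none of the 10 genes did all 5 libraries of a treatment lie outside the range of another treatment (0 of 10), and among all filtered genes this was the case for 2.6% in FoEV vs. Co (1.26% higher and 1.35% lower), 0.951% in FeEV vs. Co (0.535% and 0.415%) and 1.5% in FoEV vs. FeEV (0.757% and 0.748%). Both comparisons with Co use the same control libraries, so their values are given side by side and are not independent of each other.

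**Figure D1:**
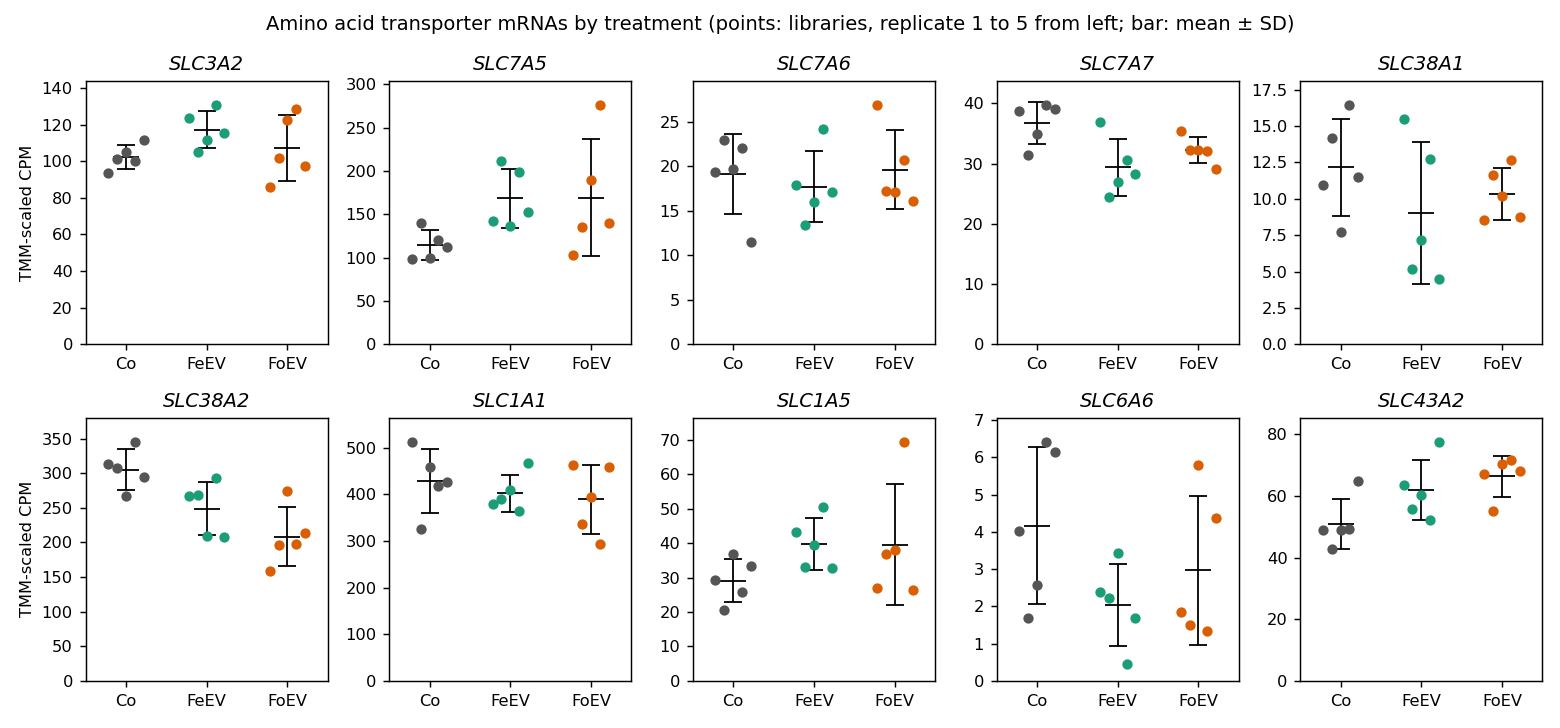
Each panel plots 1 transporter mRNA as CPM scaled by TMM (vertical axis, from 0) in the 5 libraries of Co, FeEV and FoEV, with the mean and the SD as a bar. SLC38A2 has means of 305 in Co, then 249 in FeEV, then 209 in FoEV, SLC7A5 and SLC43A2 have higher means in both EV groups, and no treatment is fully apart from another in any panel.

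The SLC38 carriers take up small neutral amino acids together with sodium. SLC38A2, which is known to be raised by amino acid shortage and by hyperosmotic medium, had 314, 307, 266, 346 and 294 CPM in Co replicates 1 to 5. In the FeEV libraries it had 267, 268, 209.9, 292 and 207 CPM. The FoEV libraries had 158, 197, 275, 198 and 214 CPM. Of the FoEV libraries, 4 lay below every Co library, and only replicate 3 reached into the Co range. Among FeEV libraries, 2 lay below every Co library and the others overlapped with Co. The means were 305 ± 28.9 in Co, followed by 249 ± 38.2 in FeEV, with 209 ± 42.5 in FoEV (SD, n = 5). A log2 fold change of -0.55 (95% interval -0.81 to -0.29, edgeR adjusted p = 0.0757) was found for FoEV vs. Co, which placed SLC38A2 at rank 34 of 10832 genes by p. For FeEV vs. Co it was -0.30 (95% interval -0.56 to -0.04, edgeR adjusted p = 1.00), and for FoEV vs. FeEV -0.25 (95% interval -0.51 to 0.01, edgeR adjusted p = 0.581). Without FoEV replicate 3, the gene was called in FoEV vs. Co, with a log2 fold change of -0.68 and an edgeR adjusted p of 0.0158. It was also called by the robust likelihood ratio test of edgeR (adjusted p = 0.00123), by the Wald test of DESeq2 (adjusted p = 0.00753) and without the filter on low counts (edgeR adjusted p = 0.000122). The call thus depends on the test, on the filter and on FoEV replicate 3.

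SLC38A1 (SNAT1), the carrier of glutamine and alanine, lies next to SLC38A2 on the same chromosome in the assembly ARS-UCD2.0, with 0 annotated genes between them. Its counts were low, between 14 and 52 per library. The levels were 12.2 ± 3.32 CPM in Co and, among EV groups, 9.02 ± 4.86 in FeEV, with 10.4 ± 1.79 in FoEV (SD, n = 5). FeEV libraries covered nearly the whole span on their own, from 4.47 CPM in replicate 5 to 15.5 in replicate 1. The log2 fold changes were -0.23 for FoEV vs. Co and -0.44 for FeEV vs. Co, with 95% intervals from -0.81 to 0.35 and from -1.04 to 0.17 (edgeR adjusted p = 0.728 and 1.00), so that a change of the size seen in SLC38A2 could not be told from no change at this depth. With single libraries left out, the value ran from -0.36 (without Co replicate 3) to -0.10 (without Co replicate 4) for FoEV vs. Co and from -0.75 (without FeEV replicate 1) to -0.25 (without FeEV replicate 5) for FeEV vs. Co.

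Of the heteromeric transporters, the heavy chain SLC3A2 had 93.7, 101, 105, 99.9 and 112 CPM in the Co libraries. In FeEV it had 123, 105, 112, 131 and 116 CPM. The FoEV libraries had 85.7, 102, 122, 129 and 97.6 CPM. The FeEV values lay in the upper part of the range, with 4 of 5 above every Co library, while the FoEV values reached both below and above the Co range. Relative to Co, the log2 fold change was 0.20 (95% interval -0.02 to 0.42, edgeR adjusted p = 1.00) for FeEV and 0.07 (95% interval -0.15 to 0.28, edgeR adjusted p = 0.802) for FoEV. As folds of Co, these intervals ran from 0.984 to 1.34 for FeEV and from 0.899 to 1.22 for FoEV.

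SLC7A5 (LAT1), the light chain that exchanges leucine and other large neutral amino acids, had 98.8, 140.0, 99.3, 121 and 112 CPM in Co. In FeEV it had 143, 211, 137, 199 and 153 CPM. In FoEV the values were 103, 135, 189.8, 276 and 139.6 CPM. The FeEV libraries were above all Co libraries except for replicate 3, which lay just under the highest Co library. The FoEV libraries spread more widely, with replicates 3 and 4 above the Co range and the other 3 inside it. The mean was 114 ± 17.1 in Co, compared with 168 ± 34.1 in FeEV, with 169 ± 67.5 in FoEV (SD, n = 5). It differed by a log2 fold change of 0.56 in both comparisons with Co, with a 95% interval from 0.08 to 1.04 for FoEV (edgeR adjusted p = 0.259) and from 0.07 to 1.04 for FeEV (edgeR adjusted p = 1.00). Without FoEV replicate 4, the library with the highest level, the FoEV value was 0.31 (edgeR adjusted p = 0.475). This library also held the highest share of rRNA counts of all 15, 28.2%, and the part of that share in the result was not tested. Between EV treatments the difference was 0.00, with a 95% interval from -0.47 to 0.48.

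The other light chains among the 10 genes had log2 fold changes below or near 0 in both comparisons with Co. SLC7A7 (y+LAT1), which exports cationic in exchange for neutral amino acids, had 38.6, 31.4, 34.8, 39.7 and 39.0 CPM in Co and 37.0, 24.5, 26.9, 30.5 and 28.2 CPM in FeEV. The FoEV libraries were close together, at 35.4, 32.3, 32.2, 32.1 and 29.2 CPM. In FeEV, 4 of 5 libraries were below every Co library, and in FoEV 1 was. Its log2 fold change was -0.31 (95% interval -0.58 to -0.05, edgeR adjusted p = 1.00) for FeEV vs. Co, at rank 166 of 10832 genes by p, and -0.18 (95% interval -0.44 to 0.07, edgeR adjusted p = 0.487) for FoEV vs. Co. SLC7A6 (y+LAT2), a carrier with similar substrates, had 19.1 ± 4.52 CPM in Co, against 17.7 ± 3.99 in FeEV, with 19.6 ± 4.43 in FoEV (SD, n = 5), with all 3 ranges overlapping. Its log2 fold changes were 0.03 and -0.13, with 95% intervals from -0.37 to 0.43 for FoEV vs. Co and from -0.54 to 0.28 for FeEV vs. Co. The SLC7A6 span overlaps that of SLC7A6OS in the reference annotation, and whether the counting used the strand is not given in the sources used here, so that the reads of both genes may be mixed.

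SLC43A2 (LAT4), a uniporter of large neutral amino acids that needs no heavy chain, had 48.9, 42.8, 49.0, 49.4 and 64.8 CPM in Co. The FeEV libraries had 63.5, 55.7, 60.4, 52.4 and 77.7 CPM. In FoEV it had 67.1, 55.0, 70.3, 71.8 and 68.2 CPM. All EV libraries were above Co replicates 1 to 4, and 4 FoEV libraries and 1 FeEV library were also above Co replicate 5. Mean levels were 51.0 ± 8.20 in Co, but 61.9 ± 9.78 in FeEV, with 66.5 ± 6.66 in FoEV (SD, n = 5). For SLC43A2 the log2 fold change was 0.38 (95% interval 0.13 to 0.64, edgeR adjusted p = 0.169) for FoEV vs. Co and 0.29 (95% interval 0.03 to 0.55, edgeR adjusted p = 1.00) for FeEV vs. Co. Among the alternatives tried, only the robust likelihood ratio test of edgeR called it in FoEV vs. Co (adjusted p = 0.0379).

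**Figure D2:**
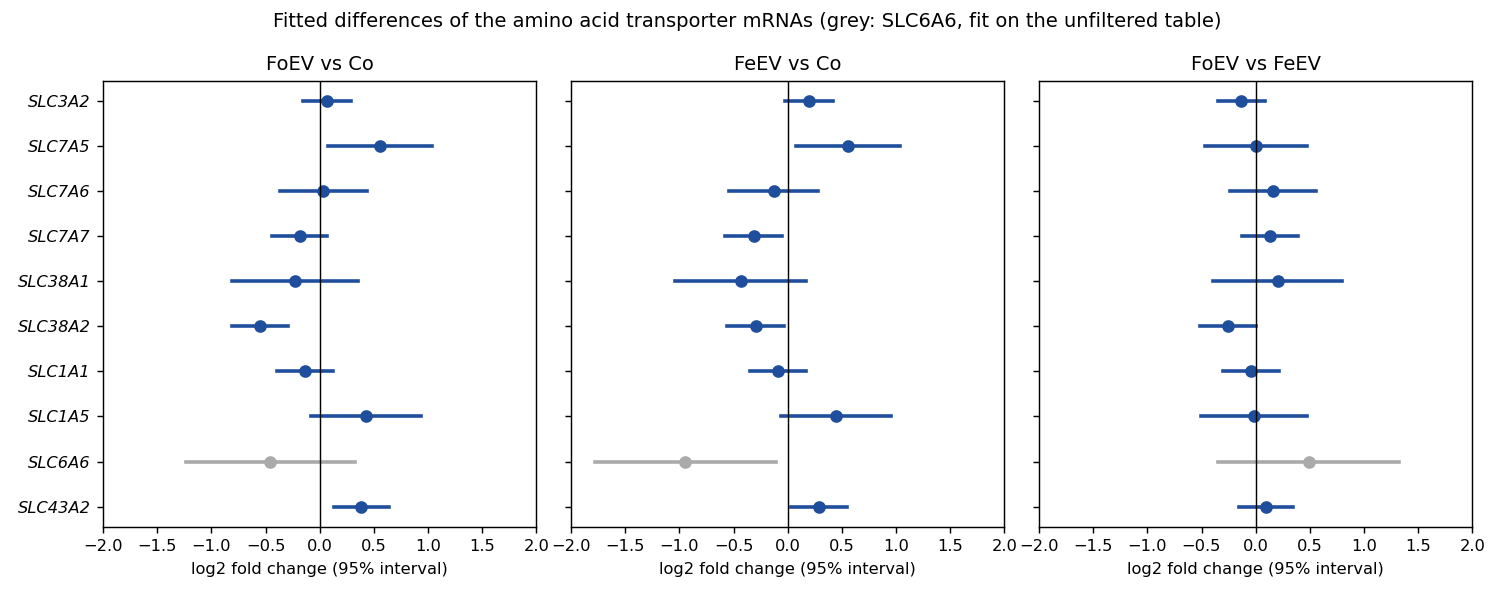
The points show log2 fold changes of the 10 genes (rows) in the 3 comparisons (panels), and the lines show 95% intervals. SLC6A6, in grey, comes from the more liberal fit on the unfiltered table. SLC38A2 lies below 0 and SLC7A5 and SLC43A2 lie above 0 in both comparisons with Co, with intervals that leave out 0, and every interval for FoEV vs. FeEV includes 0.

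The SLC1 family was represented by a glutamate and a glutamine carrier. SLC1A1 (EAAT3), which takes up glutamate, aspartate and cysteine, had 513, 327, 459, 419 and 428 CPM in Co, 381, 389.5, 411, 365 and 467 in FeEV and 463, 337, 396, 295 and 459 in FoEV. These ranges lay nearly on top of each other, and the lowest value was that of FoEV replicate 4. SLC1A1 had log2 fold changes of -0.14 (95% interval -0.40 to 0.12, edgeR adjusted p = 0.628) for FoEV vs. Co and -0.09 (95% interval -0.35 to 0.17, edgeR adjusted p = 1.00) for FeEV vs. Co. SLC1A5 (ASCT2), the exchanger that loads glutamine, had 29.2, 20.6, 36.8, 25.7 and 33.2 CPM in Co, 43.2, 33.1, 39.4, 50.6 and 32.7 in FeEV and 26.9, 36.8, 38.0, 69.4 and 26.4 in FoEV. In each EV group 3 of 5 libraries exceeded every Co library, and FoEV replicate 4 was the highest of all 15. For SLC1A5 the log2 fold change was 0.43 (95% interval -0.08 to 0.93, edgeR adjusted p = 0.409) for FoEV vs. Co and 0.44 (95% interval -0.07 to 0.95, edgeR adjusted p = 1.00) for FeEV vs. Co. Without FoEV replicate 4 the value for FoEV vs. Co was 0.14 (edgeR adjusted p = 0.787).

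SLC6A6 (TauT), the taurine and beta-alanine carrier, had too few reads for the filtered table. It had 11, 5, 8, 16 and 15 counts in the Co libraries, 8, 6, 11, 1 and 6 in FeEV and 8, 6, 21, 4 and 16 in FoEV. The groups overlapped widely, and 1 FeEV library was under the floor of 3 counts. In the fit on all genes with a count in any library, its log2 fold change was -0.95 (95% interval -1.78 to -0.11, edgeR adjusted p = 0.863) for FeEV vs. Co and -0.46 (95% interval -1.24 to 0.32, edgeR adjusted p = 0.651) for FoEV vs. Co. This fit called more genes than the main fit in every comparison, so its intervals cannot be set beside those of the other genes.

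Together the 10 mRNAs took 1103 ± 62.9 CPM in Co, against 1097 ± 48.7 in FeEV, with 1046 ± 93.9 in FoEV (SD, n = 5). SLC1A1 and SLC38A2 accounted for between 44.6% and 70.7% of these reads, depending on the library. No transcript lengths were at hand, so that levels were not compared between genes. Relative to its own mean, SLC3A2 varied least over the 15 libraries (coefficient of variation 12.1%), and SLC38A1 (33.7%), SLC1A5 (33.0%) and SLC7A5 (32.7%) varied most among the 9 genes of the filtered table. FoEV replicate 4 was the highest library for SLC7A5 and SLC1A5 and the lowest for SLC1A1. FoEV replicate 1 was the lowest for SLC3A2 and SLC38A2 and the highest for SLC7A6.

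**Figure D3:**
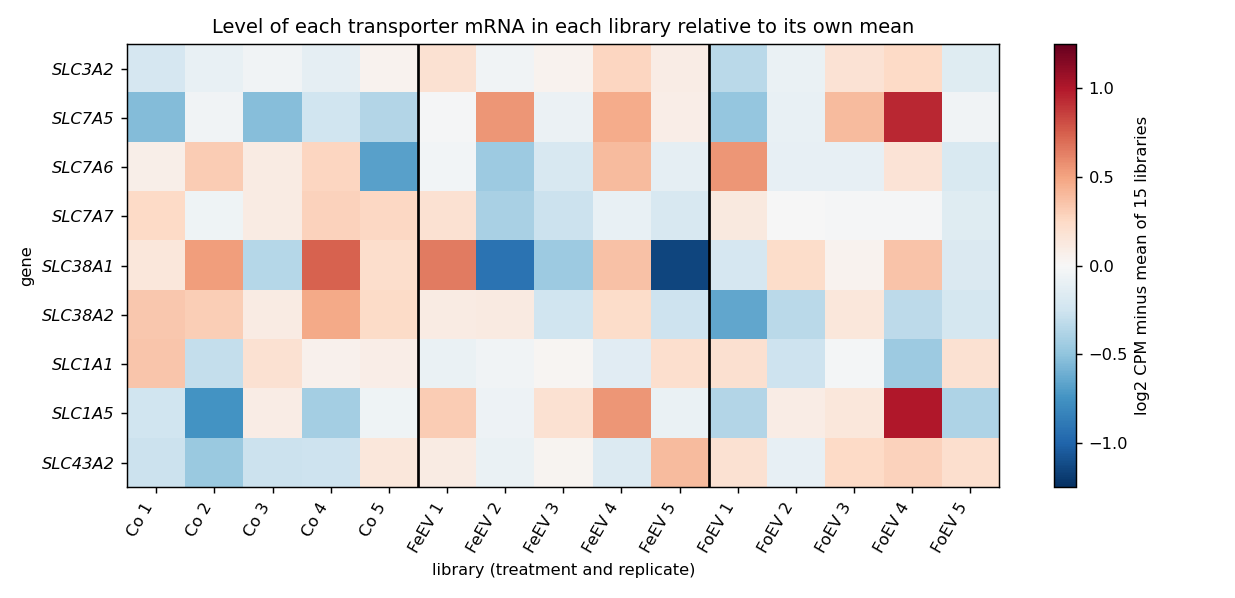
Colours give log2 CPM minus the mean over all 15 libraries for the 9 genes of the filtered table (rows) in each library (columns, grouped by treatment). The row of SLC38A2 is above its mean in all 5 Co libraries and below it in 4 of 5 FoEV libraries, and the column of FoEV replicate 4 stands out with high SLC7A5 and SLC1A5.

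Whether light chain mRNAs varied with the mRNA of their heavy chain was examined over the 15 libraries, after the treatment mean had been subtracted from the log2 CPM. SLC3A2 and SLC7A5 varied together with an r (Pearson) of 0.678 (permutation p = 0.0437, with 0.131 as the adjusted p over 3 relations) and Spearman rho = 0.514 (permutation p = 0.102, adjusted p = 0.305). Without FoEV replicates 1 and 4, the farthest from the median of SLC3A2, r was 0.281. Leaving out the extremes narrows the range of SLC3A2, which can itself lower r. This drop therefore cannot show whether the relation rests on these libraries. For SLC7A6, r was -0.107 (permutation p = 0.716, adjusted p = 0.716) and rho 0.0643 (permutation p = 0.842, adjusted p = 0.842), with r = 0.117 without the same libraries. For SLC7A7, r was 0.171 (permutation p = 0.496, adjusted p = 0.716) and rho 0.136 (permutation p = 0.639, adjusted p = 0.842), with r = 0.463 without them. After the adjustment, none of the 3 relations held up.

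**Figure D4:**
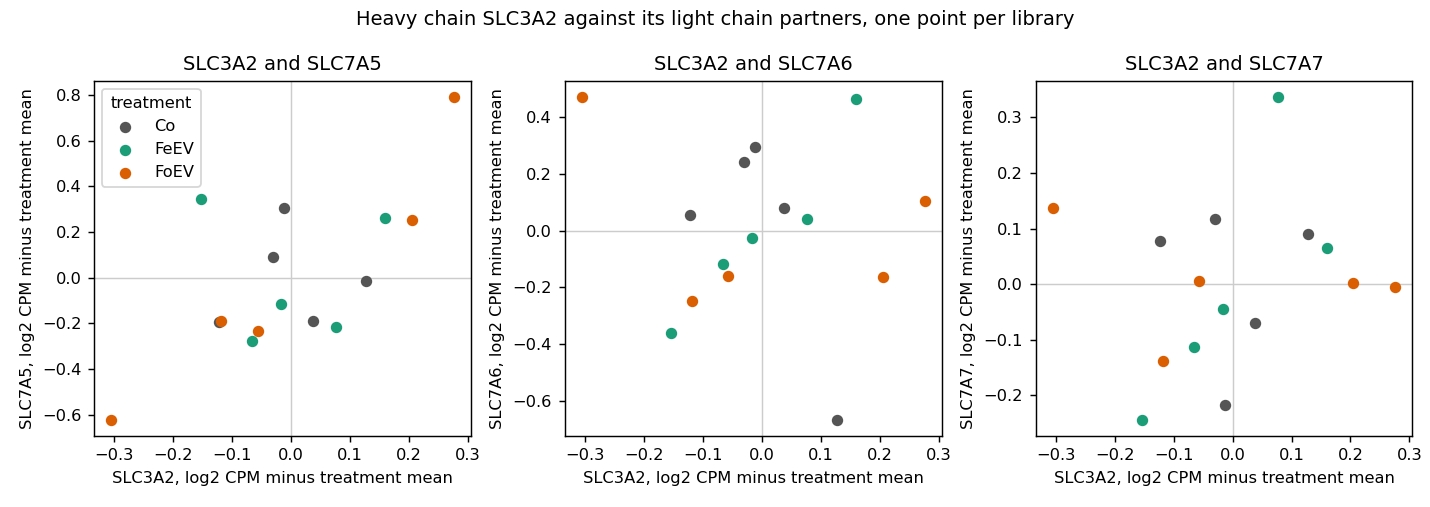
Each panel plots log2 CPM minus the treatment mean of SLC3A2 (horizontal axis) against that of SLC7A5, SLC7A6 or SLC7A7 (vertical axis), with 1 point per library coloured by treatment. In the SLC7A5 panel, FoEV replicate 1 lies at the lower left and FoEV replicate 4 at the upper right. Over the other 13 libraries, with a narrower range of SLC3A2, r was 0.281.

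For 8 of the transporters, the gene of the filtered table with the most similar profile over these 15 centred values was looked up, as a description. For SLC3A2 this was SLC7A1 (CAT1, r = 0.891), the carrier of arginine and lysine, which was not among the 10 genes. For SLC1A5 it was the tumour suppressor gene RASSF1 (r = 0.914), with SLC3A2 at rank 14 (r = 0.772). For SLC1A1 it was the transcription factor gene MYC (r = 0.922). SLC38A2 was closest to DISP3 (r = 0.914), SLC43A2 to GDPD2 (r = 0.898), SLC7A6 to EDNRB (r = 0.865) and SLC7A7 to the transcription factor gene KLF2 (r = 0.850). SLC38A1, with its low counts, was closest to MIR371 (r = 0.850). Each is the highest of the coefficients with all other genes of the filtered table over 15 values, and no chance level was computed.

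The remaining amino acid transporters were taken from a list of 45 symbols, of which 44 were matched and 19 were in the filtered table. None of the 19 was called in the 3 comparisons (0 genes each at an edgeR adjusted p under 0.05). At an unadjusted p under 0.05, 1 passed in FoEV vs. Co, 1 in FeEV vs. Co and 0 in FoEV vs. FeEV, beside 15.1%, 4.15% and 8.52% of all genes. In FoEV vs. Co 9 log2 fold changes were above and 10 below 0 (median -0.03). The gene that passed in FoEV vs. Co was SLC6A20, a carrier of proline, with 160.0 ± 25.5 CPM in Co, 129 ± 30.5 in FeEV, 111 ± 26.2 in FoEV (SD, n = 5). It differed from Co by a log2 fold change of -0.52 in FoEV (edgeR adjusted p = 0.179) and of -0.31 in FeEV (edgeR adjusted p = 1.00). In FeEV vs. Co it was SLC6A9 (GlyT1), the glycine carrier, with 2.70 ± 1.81 CPM in Co and 5.59 ± 1.15 in FeEV and a log2 fold change of 1.04 (edgeR adjusted p = 1.00). SLC6A9 had few reads, and its FoEV level was 4.78 ± 2.40 CPM, with a log2 fold change of 0.79 from Co (edgeR adjusted p = 0.415). SLC7A8 (LAT2), another light chain of SLC3A2, had 139.9 ± 10.5 CPM in Co, 118 ± 15.7 in FeEV and 131 ± 25.6 in FoEV. Its FeEV libraries, at most 132 CPM, were all just below the lowest Co library at 133 CPM, with a log2 fold change of -0.24 for FeEV vs. Co (edgeR adjusted p = 1.00). It was 1 of 19 genes with groups apart in this direction, beside 0.415% of all genes. The lysosomal arginine sensor and carrier SLC38A9 had a log2 fold change of -0.21 for FoEV vs. Co (edgeR adjusted p = 0.399) and of -0.19 for FoEV vs. FeEV (edgeR adjusted p = 0.634). The values of SLC1A3, the glutamate carrier EAAT1, were -0.33 (edgeR adjusted p = 0.413) and -0.31 (edgeR adjusted p = 0.646). The lysosomal histidine carrier SLC15A4 had a log2 fold change of -0.23 for FeEV vs. Co (edgeR adjusted p = 1.00). In FoEV vs. FeEV, the values of the SLC38 family members SLC38A6 and SLC38A10 were -0.29 (edgeR adjusted p = 0.670) and 0.19 (edgeR adjusted p = 0.714).

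Of the genes that sense amino acids for mTORC1, 37 of 39 were in the filtered table. None was called (0 genes at an edgeR adjusted p under 0.05), and at an unadjusted p under 0.05 there were 3 higher and 3 lower in FoEV vs. Co, 1 higher and 2 lower in FeEV vs. Co, and 1 higher and 0 lower in FoEV vs. FeEV. The shares of all genes were 8.18% higher and 6.88% lower in FoEV vs. Co, 1.83% and 2.32% in FeEV vs. Co, and 4.83% and 3.69% in FoEV vs. FeEV. LAMTOR2, a subunit of the Ragulator that anchors Rag GTPases on the lysosome, had 12.6 ± 1.98 CPM in Co, against 13.7 ± 1.47 in FeEV, with 17.2 ± 0.790 in FoEV (SD, n = 5). Every FoEV library, from 16.4 to 18.3 CPM, was above every Co library and above every FeEV library. Of all filtered genes, 1.26% were likewise fully higher in FoEV than in Co, and 0.757% fully higher than in FeEV. LAMTOR2 was the only gene of the 37 with this in either comparison. LAMTOR2 had a log2 fold change of 0.44 for FoEV vs. Co (edgeR adjusted p = 0.179) and 0.32 for FoEV vs. FeEV (edgeR adjusted p = 0.572). SEC13, of the GATOR2 complex and of the nuclear pore and COPII coat, had a log2 fold change of 0.35 for FoEV vs. Co (edgeR adjusted p = 0.179). FNIP1, the partner of folliculin, was lower, with 107 ± 19.2 CPM in Co, 81.9 ± 11.2 in FeEV, 73.9 ± 20.7 in FoEV and log2 fold changes of -0.53 for FoEV vs. Co (edgeR adjusted p = 0.180) and -0.38 for FeEV vs. Co (edgeR adjusted p = 1.00). RRAGC, a Rag GTPase, had 39.3 ± 4.65 CPM in Co, 30.9 ± 3.55 in FeEV and 30.5 ± 5.62 in FoEV, with log2 fold changes of -0.36 (edgeR adjusted p = 0.223) and -0.35 (edgeR adjusted p = 1.00). WDR59, also of GATOR2, and TBC1D7, of the TSC complex that restrains mTORC1, had log2 fold changes of 0.28 and 0.35 for FeEV vs. Co (edgeR adjusted p = 1.00 for both). In FoEV vs. FeEV, the log2 fold change was -0.18 for the GATOR2 gene SEH1L (edgeR adjusted p = 0.586), 0.46 for EIF4EBP1, a target of mTORC1 (edgeR adjusted p = 0.602), and 0.24 for the Rag GTPase gene RRAGA (edgeR adjusted p = 0.626).

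The amino acid response list held 24 genes of the GCN2 and ATF4 pathway and its target enzymes, and 22 were in the filtered table. None was called in any comparison (0 genes at an edgeR adjusted p under 0.05). Unadjusted p-values under 0.05 were found for 4 higher genes and 1 lower gene in FoEV vs. Co, 3 were higher and 0 lower in FeEV vs. Co, and 0 passed in FoEV vs. FeEV. Of all genes, 8.18% were higher and 6.88% lower in FoEV vs. Co, 1.83% and 2.32% in FeEV vs. Co, and 8.52% passed in FoEV vs. FeEV. The log2 fold change was above 0 for 18 of 22 genes in FoEV vs. Co (median 0.24) and for 17 in FeEV vs. Co (median 0.17), where 52.3% and 51.0% of all genes were above 0. ASNS, the asparagine synthetase, had 121 ± 8.95 CPM in Co, against 175 ± 16.9 in FeEV, with 158 ± 54.8 in FoEV (SD, n = 5). The FeEV libraries, from 159 to 202 CPM, were all above the highest Co library at 132 CPM, while FoEV libraries ran from 84.1 to 217 CPM. ASNS had a log2 fold change of 0.53 for FeEV vs. Co (edgeR adjusted p = 1.00) and 0.38 for FoEV vs. Co (edgeR adjusted p = 0.348). In the paper, which used a likelihood ratio cutoff for this comparison, ASNS is among the upregulated genes for FeEV vs. Co. PSAT1, an enzyme of serine synthesis, was likewise higher in every FeEV library (71.6 to 100.3 CPM) than in every Co library (43.3 to 68.8 CPM), with a log2 fold change of 0.60 (edgeR adjusted p = 1.00). FoEV libraries of PSAT1 ranged from 20.4 to 94.1 CPM. Groups apart from each other, higher in FeEV, were found for 0.535% of all genes.

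CHAC1, which degrades glutathione, had 5.86 ± 1.35 CPM in Co, against 9.72 ± 2.91 in FeEV, with 10.8 ± 6.13 in FoEV (SD, n = 5), with log2 fold changes of 0.84 for FoEV vs. Co (edgeR adjusted p = 0.230) and 0.71 for FeEV vs. Co (edgeR adjusted p = 1.00). PYCR1, of proline synthesis, had a log2 fold change of 0.76 for FoEV vs. Co (edgeR adjusted p = 0.232), and TRIB3, a pseudokinase induced by ATF4, one of 0.59 (edgeR adjusted p = 0.312). ALDH18A1, which also acts in proline synthesis, had a log2 fold change of 0.43 for FeEV vs. Co (edgeR adjusted p = 1.00). The mRNA of ATF4 itself had 209.6 ± 21.2 CPM in Co, 251 ± 13.8 in FeEV and 262 ± 80.3 in FoEV, with a log2 fold change of 0.32 for FoEV vs. Co (edgeR adjusted p = 0.324). EIF2S1, the alpha subunit of eIF2 that GCN2 phosphorylates, was the gene of the list that was lower at an unadjusted p under 0.05, with a log2 fold change of -0.26 for FoEV vs. Co (edgeR adjusted p = 0.259). In FoEV vs. FeEV the nearest to a call were CEBPB, a transcription factor gene (0.39, edgeR adjusted p = 0.628), TRIB3 (0.42, edgeR adjusted p = 0.661), SHMT2, of mitochondrial serine and glycine conversion (0.17, edgeR adjusted p = 0.698), and PSAT1 (-0.38, edgeR adjusted p = 0.713), given as log2 fold changes.

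**Figure D5:**
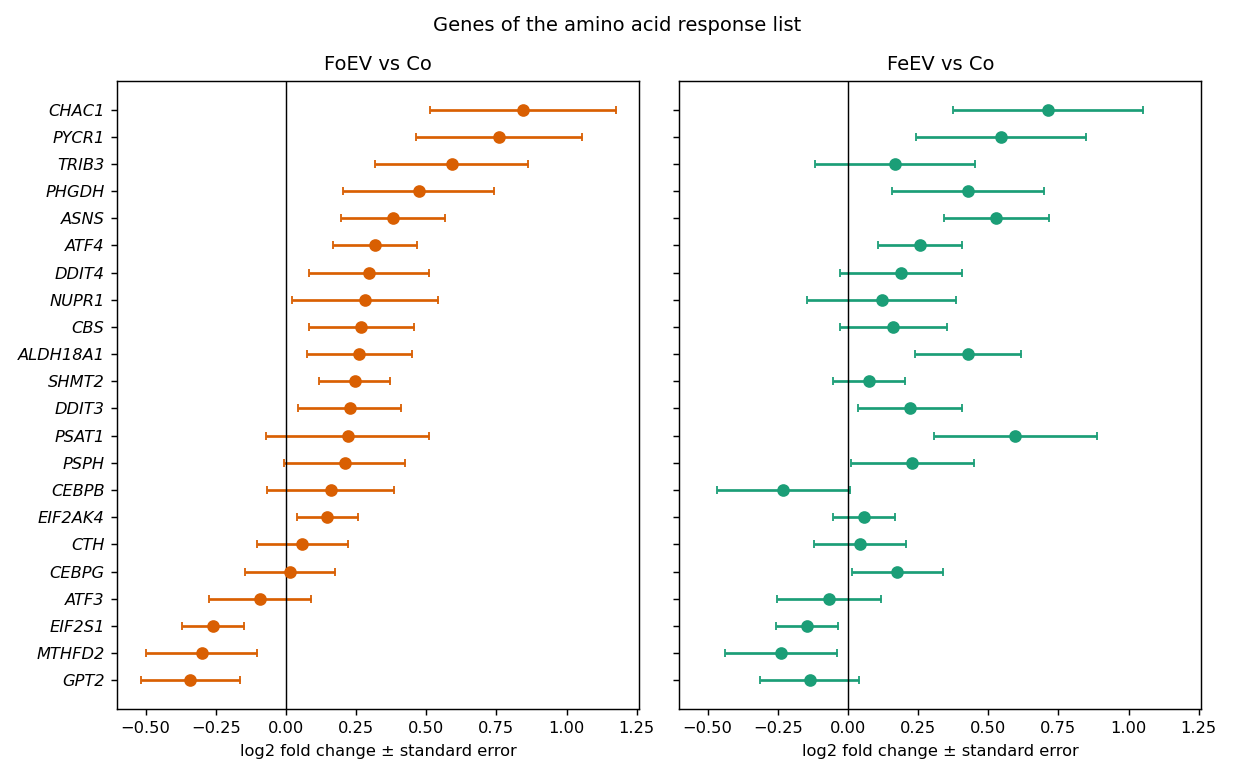
Points show the log2 fold change and lines the standard error of the 22 genes of the amino acid response list (rows, ordered by FoEV vs. Co) in FoEV vs. Co (left) and FeEV vs. Co (right). In FoEV vs. Co 18 points and in FeEV vs. Co 17 points lie above 0, led by CHAC1 at 0.84 and 0.71, and GPT2, MTHFD2, EIF2S1 and ATF3 lie below 0 in both panels, which share the Co libraries.

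Lineage markers were read beside the values of the transporters. The summed level of the 10 trophectoderm markers ran from 8231 to 11245 CPM in Co, from 8833 to 13017 in FeEV and from 10531 to 14029 in FoEV. This sum mostly follows KRT8, KRT18 and PTGS2 (medians of 4567, 3161 and 1930 CPM), while CDX2 and TFAP2A had medians of 33.5 and 20.9 CPM. For FoEV vs. Co, 9 of the 10 log2 fold changes were above 0. They included 0.21 for CDX2, 0.09 for TEAD4 and 0.01 for PTGS2, and TFAP2A was at -0.49. In FoEV vs. Co, 4 of these 10 genes were higher and 0 lower at an unadjusted p under 0.05, beside 8.18% and 6.88% of all genes, and KRT18 was nearest to a call, with a log2 fold change of 0.55 (edgeR adjusted p = 0.0818). With its robust likelihood ratio test, the paper lists KRT18 as upregulated and NANOG as downregulated in FoEV vs. Co. The summed inner cell mass markers ran from 354 to 421 CPM in Co, from 357 to 422 in FeEV and from 334 to 506 in FoEV. This sum mostly follows POU5F1 and SALL4 (medians of 172 and 120 CPM). Of the 4 tested genes 1, the pluripotency gene NANOG, was lower at an unadjusted p under 0.05 in both comparisons with Co. NANOG had log2 fold changes of -0.84 for FoEV vs. Co (edgeR adjusted p = 0.178) and -0.62 for FeEV vs. Co (edgeR adjusted p = 1.00). The summed hypoblast markers ran from 542 to 860.1 CPM in Co, from 590.2 to 735 in FeEV and from 548 to 745 in FoEV, with 0 of 4 tested genes passing. The part of these differences in the values of SLC38A2, SLC7A5 and SLC43A2 was not tested.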

How the data were processed

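Per the labels, pools of embryos were sequenced after low-input total RNA library preparation with strand selection. The deposited values are counts of reads per NCBI gene without normalization. The authors mapped single-end reads to ARS-UCD1.2 (bosTau9) with the NCBI annotation. The methods name QuasR Qcount for counting, whereas the submitters' processing notes list Trim Galore 0.4.3.1, HISAT2 2.1.0 and featureCounts 1.6.3. The labels give 7 days of culture and the methods 8. The treatment named in a title set the group of each library. The counts of the filtered table were scaled by TMM and fitted in 1 model over the 15 libraries with edgeR 4.0.16 in R 4.3.3 (estimateDisp, glmQLFit with robust=TRUE, glmQLFTest), with adjustment over 10832 genes. Of these, 10709 were matched by identifier to ARS-UCD2.0 symbols. The methods name a robust dispersion with a likelihood ratio test, tried here as an alternative beside DESeq2 1.42.0. CPM are scaled by TMM, and log2 CPM use a prior count of 2. The standard error is the log2 fold change divided by the root of F. Correlations used 100000 two-sided permutations within treatments (Python 3.11.15, numpy 2.4.6, scipy 1.17.1, pandas 2.3.3). The fit was tested on simulated data. Floors cover counting error only. The transporters and gene lists were chosen with earlier results of these data known. Named in each list are up to 4 genes per comparison by p, and a few others chosen after their values were seen. Libraries with the same replicate number in the titles correlated weakly (correlation of deviations over 0.1 in 1, 3 and 3 of 5 pairs). Their mean correlation was 0.034 in FoEV vs. Co, 0.138 in FeEV vs. Co and 0.186 in FoEV vs. FeEV. Pairs with other numbers had means of -0.008, -0.034 and -0.046. The descriptions number the libraries differently from the titles. By the description numbers, same-number pairs had means of 0.076 (3 pairs), 0.097 (3 pairs) and 0.072 (4 pairs) in the same order of comparisons. Other pairs had means of -0.010, -0.013 and -0.014. These values do not settle whether the numbers mark pairs. The main fit used no block, and blocks by replicate number and by description number were tried as alternatives. No sequences or transcript lengths were used here. The gene most like SLC7A5 in profile is not reported here.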

Additional observations from a re-analysis of the deposited data

Results flagged for a closer look

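Within each treatment, the level of each of the 10 genes was searched for a library far from the others, in 30 sets of 5 values, of which chance flags about 1 in 20. In 2 sets a library stood apart. For SLC1A5, FoEV replicate 4 had 69.4 CPM, with the next library at 38.0 CPM (gap of 0.731 of the range, critical value 0.71). For SLC43A2, FoEV replicate 2 had 55.0 CPM, below the next library at 67.1 CPM (gap of 0.724 of the range).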

How the results depend on the processing

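The number of all genes with an adjusted p under 0.05 moved with the test, the filter, the block and the libraries used. For FoEV vs. Co, FeEV vs. Co and FoEV vs. FeEV it was 311, 6 and 31 with the robust likelihood ratio test, 144, 1 and 3 with DESeq2, 173, 13 and 22 without the filter, and 57, 0 and 0 with the replicate block. The block by library number of the descriptions kept only libraries whose number occurred in both treatments. These were 3 pairs for each comparison with Co and 4 pairs for FoEV vs. FeEV. With this block and fewer libraries, the number of genes was 44 for FoEV vs. Co and 4 for FeEV vs. Co. It was 5 for FoEV vs. Co with only these treatments in the fit and 2 with counts thinned to equal depth. Leaving out single libraries gave 0 to 58 genes for FoEV vs. Co (58 without FoEV replicate 2, 14 without FoEV replicate 3, 4 without Co replicate 2, and 0 without Co replicate 3 or 4 or without FoEV replicate 1, 4 or 5) and 0 to 1 for FoEV vs. FeEV (1 without FeEV replicate 5). Among the transporters, the number at an unadjusted p under 0.05 ran from 2 to 4 in FeEV vs. Co (2 without Co replicate 1 or 4 or FeEV replicate 5) and from 0 to 1 in FoEV vs. FeEV (1 without FeEV replicate 3 or 5 or FoEV replicate 3) when single libraries were left out, and was 1 in FoEV vs. FeEV and 6 in FeEV vs. Co with the robust test and without the filter. The log2 fold change of SLC38A2 in FoEV vs. Co stayed between -0.68 and -0.44 over 18 alternatives, with adjusted p from 0.000122 to 0.266, and passed 0.05 in 4 of them. SLC7A5 in FoEV vs. Co ran from 0.31 to 0.80 (adjusted p from 0.0526 to 0.475) and SLC43A2 from 0.27 to 0.48 (0.0379 to 0.493). The replicate block changed no call of a transporter. Its same-number pairs correlated at -0.29 to 0.35 in FoEV vs. Co, and 1 of 5 FoEV libraries correlated best with its own number. The pairs correlated at -0.21 to 0.42 in FeEV vs. Co and at 0.013 to 0.44 in FoEV vs. FeEV. In each of these comparisons, 2 of 5 libraries of the first group correlated best with their own number. Values near 0 changed sign. SLC7A6 in FoEV vs. Co was -0.053 with the robust test, and SLC7A5 in FoEV vs. FeEV was -0.31 with the library number block, -0.0041 without the filter, -0.034 with the replicate block, -0.11 with the robust test and -0.031 thinned. SLC1A1 in FoEV vs. FeEV was 0.014 with the library number block. With single libraries left out, SLC3A2 ran from -0.0064 to 0.14 and SLC7A6 from -0.11 to 0.11 in FoEV vs. Co, and in FoEV vs. FeEV SLC7A5 ran from -0.24 to 0.14, SLC1A1 from -0.11 to 0.039 and SLC1A5 from -0.31 to 0.10. The r of SLC3A2 ran from 0.499 (without FoEV replicate 4) to 0.845 (without FeEV replicate 2) with SLC7A5 and from -0.294 to 0.239 with SLC7A6, and was 0.675, -0.329 and 0.469 with SLC7A5, SLC7A6 and SLC7A7 under the replicate block. The cause of these changes was not tested. Depth limits SLC6A6 and SLC38A1, with 1 to 21 and 14 to 52 counts.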
